A study of Rattus norvegicus with 57 samples.

Results

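The genes described here are 42 named genes of the extracellular matrix, its collagens and the contractile fibroblast, followed in the kidney cortex of rats after cisplatin, a platinum drug used against tumours that injures kidney tubules. They were taken as a list of gene symbols, and each was read from 1 probe set of the array, the one with the highest mean log2 signal. Of the 42, 41 had a probe set with that symbol and 40 passed the filter on dim probe sets, out of 11683 genes tested in all. Thbs1 was not analysed here, and the probe set of Mmp7, a matrix protease of injured epithelium, was too dim for the filter, with mean signals of 1.01 ± 0.95 (SD, n = 5) in control rats, 4.16 ± 1.91 at 1 mg/kg and 2.07 ± 2.37 at 3 mg/kg on day 8 and no mean above 4.16 in any group.

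The animals were Han Wistar rats, males aged 8 weeks, injected once into the peritoneum with saline alone or with cisplatin at 1 or 3 mg/kg. Their kidneys were taken 3, 5, 8 or 26 days later. RNA from a cortex-enriched homogenate of each kidney was hybridised to an Affymetrix rat array, 1 array per rat. The design names 6 animals per group, and the arrays used here number 5 per group, except 4 control rats on day 26 and 3 rats at 1 mg/kg on day 5, in all 57 arrays in 12 groups. Every dose was compared with the control rats killed on the same day.

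Fibroblasts and pericytes of the kidney interstitium make most of its fibrillar collagen. When they become myofibroblasts they take on smooth muscle proteins such as alpha-smooth muscle actin and lay down a provisional matrix rich in fibronectin and tenascin, which lysyl oxidases then crosslink. The tubular and glomerular basement membranes are a separate sheet-like matrix of type IV collagen and laminins, made by epithelial and endothelial cells as well.

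Array signals are given on the scale of the deposited values, and a change is a difference between group means of log2(signal + 16), which understates the change of dim genes. Changes are given ± the standard error of the limma fit, and a gene is said to have risen or fallen where its Benjamini-Hochberg adjusted p over all 11683 genes was under 0.05. The median signal of an array lay between 20.3 and 26.2, and arrays of 1 group correlated at 0.961 to 0.993 over the genes tested. All 10 proximal tubule markers passed the filter, with a summed signal of 24690 to 28840 in the control rats of day 8, which shows tubule in the samples but does not tell cortex from other kidney tissue. Because each array reads a whole homogenate, fewer cells of a type and less RNA per cell cannot be told apart.

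Among the comparisons of a dose with control, most calls were made on day 8 after 3 mg/kg. There 15 of the 40 rose, when 21.4% of all genes tested rose, and 1 fell, when 15.9% of all genes fell. The median change of the 40 was 0.25, against 0.04 over all genes, and 35 of the 40 changes were above 0, as were 57.5% of all genes. In 9 of the 40 every treated rat lay above every control rat, which 9.41% of all genes also did, and no member lay wholly below the controls, as 6.95% of all genes did. The 5 genes that rose furthest were Lox, Tagln, Tnc, Dcn and Fn1, with folds of 2.16 to 2.90 on the log2(signal + 16) scale, whereas Col1a1, Col1a2 and Col3a1, chains of the main fibrillar collagens, did not pass the test.

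**Figure D1:**
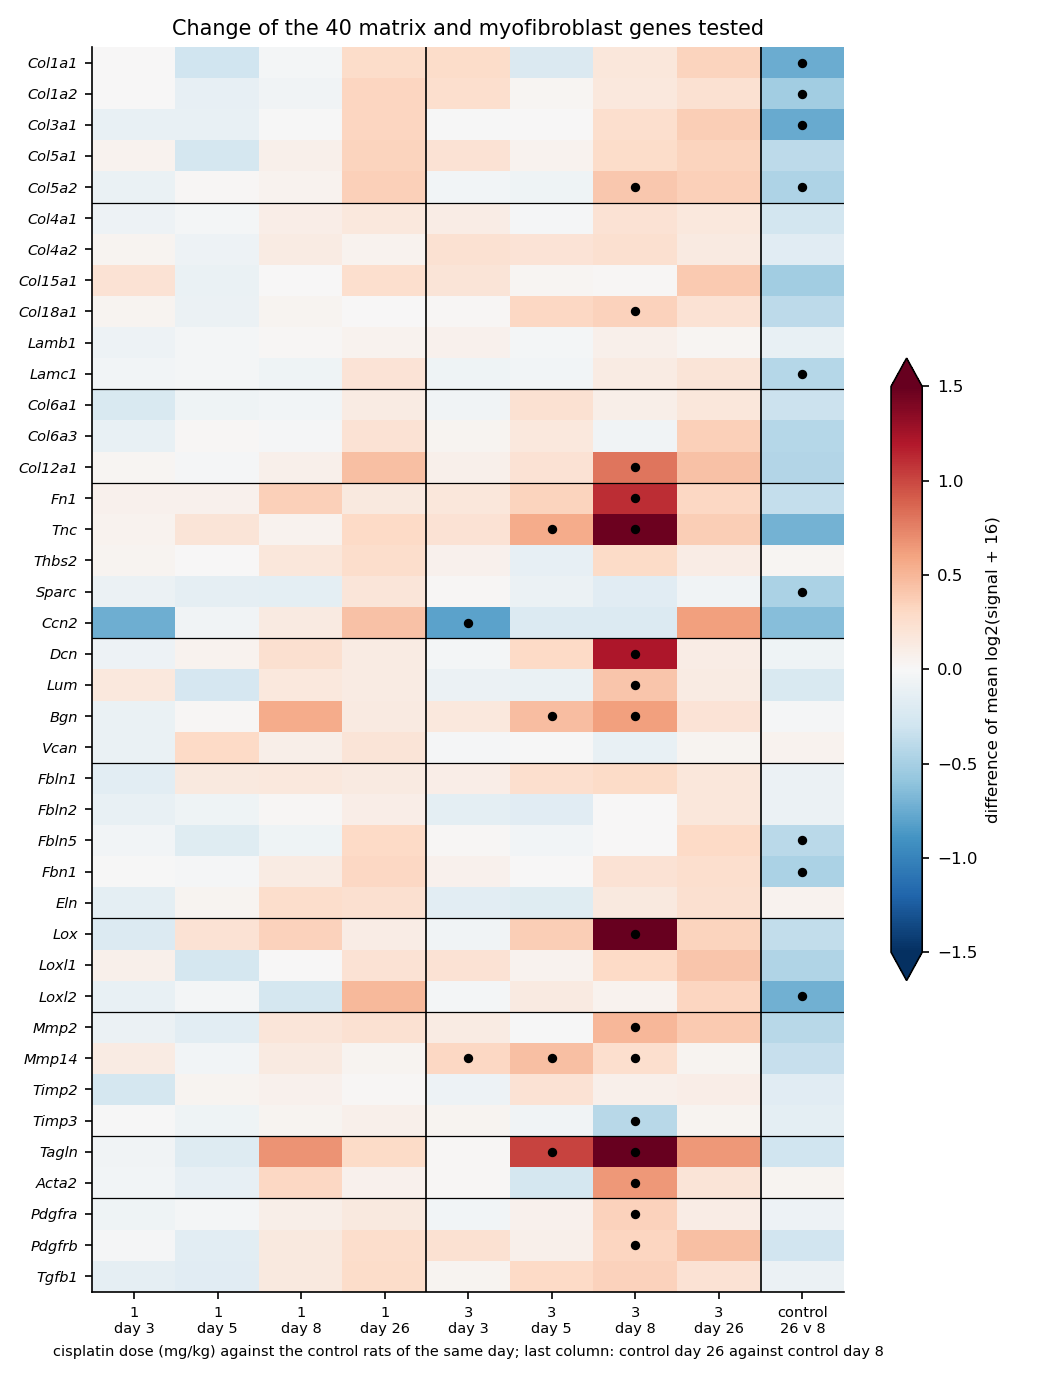
Heat map of the change of each of the 40 genes tested (rows, grouped by role with black lines) in 9 comparisons (columns: each dose against the control rats of its own day, for all 4 days, and control day 26 against control day 8). Colour is the difference of mean log2(signal + 16), from -1.5 (blue) to 1.5 (red), and black dots mark adjusted p under 0.05. The day 8 column at 3 mg/kg holds 16 dots, the 4 columns at 1 mg/kg hold none, and the last column holds 9 dots, all on lower values.

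Lox, lysyl oxidase, oxidises lysines of collagen and elastin so that the fibres crosslink. On day 8 its signals at 3 mg/kg were 90.6, 151.4, 87.2, 116.3 and 122.0 in replicates 1 to 5, and 46.1, 25.3, 20.7, 20.7 and 31.4 in the control rats. The lowest treated rat was well above the highest control rat. Its change of 1.54 ± 0.16 (adjusted p = 2.15e-10) was the highest of the 40, and its second probe set rose as well, by 1.04. The relatives Loxl1 (0.30 ± 0.15, adjusted p = 0.13) and Loxl2 (0.06 ± 0.12) did not pass.

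Tnc, tenascin C, is an adhesion-modulating glycoprotein of healing tissue. It read 145.7, 176.9, 191.4, 133.1 and 114.0 in the 5 rats at 3 mg/kg, and 49.1, 52.9, 40.6, 38.7 and 39.2 in the control rats of day 8. The groups did not overlap, and the change was 1.47 ± 0.18 (adjusted p = 8.51e-09). Fn1, fibronectin, on which cells assemble new matrix, read 697.3, 433.1, 610.7, 504.3 and 449.9 against 272.4, 243.6, 224.3, 219.0 and 231.3. Again no treated rat reached down to the controls, with a change of 1.11 ± 0.15 (adjusted p = 2.84e-08). The other glycoproteins did not pass: Thbs2 changed by 0.28 ± 0.12 (adjusted p = 0.051), Ccn2 by -0.20 ± 0.22, and Sparc, a collagen-binding glycoprotein, by -0.17 ± 0.10.

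The contractile pair both rose. Tagln, transgelin or SM22, an actin-binding protein of smooth muscle and myofibroblasts, read 301.6, 619.6, 471.3, 420.3 and 337.9 at 3 mg/kg and 107.0, 150.8, 104.9, 154.3 and 162.1 in the controls, a change of 1.53 ± 0.22 (adjusted p = 2.38e-07). The groups did not overlap. Acta2, alpha-smooth muscle actin, the defining protein of the myofibroblast, read 55.6, 95.5, 93.1, 94.1 and 74.4 against 58.2, 39.5, 44.2, 37.9 and 51.6, a change of 0.65 ± 0.11 (adjusted p = 2.19e-06). Here replicate 1 of the treated group lay within the range of the controls, and the other 4 lay above it.

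The promoter of Acta2 is printed because Acta2 defines the myofibroblast and because the binding elements of serum response factor, CArG boxes, are known to drive it. The sequence is that of RefSeq (assembly GRCr8), the 250 bases before the transcription start on the minus strand at chr1:241172504-241172753. Capitals mark 2 elements, CCCTATATGG and CCTTGTTTGG, that differ from a CArG box by 1 G or C in the A/T core.
Acta2: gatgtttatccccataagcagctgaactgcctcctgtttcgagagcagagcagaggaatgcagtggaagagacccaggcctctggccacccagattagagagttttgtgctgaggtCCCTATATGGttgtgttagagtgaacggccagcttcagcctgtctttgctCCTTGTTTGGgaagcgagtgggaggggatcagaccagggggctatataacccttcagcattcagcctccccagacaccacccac
The strict CArG box was found in the promoter window of none of the 27 members with an entry, and in 1.64% of 33469 promoters. The form with 1 G or C in its core, looked for after the sequence was seen, was found in 5 of the 27, Acta2, Lamb1, Tgfb1, Timp2 and Timp3, and in 8.1% of all promoters. Only Acta2 among those 5 rose on day 8.

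**Figure D2:**
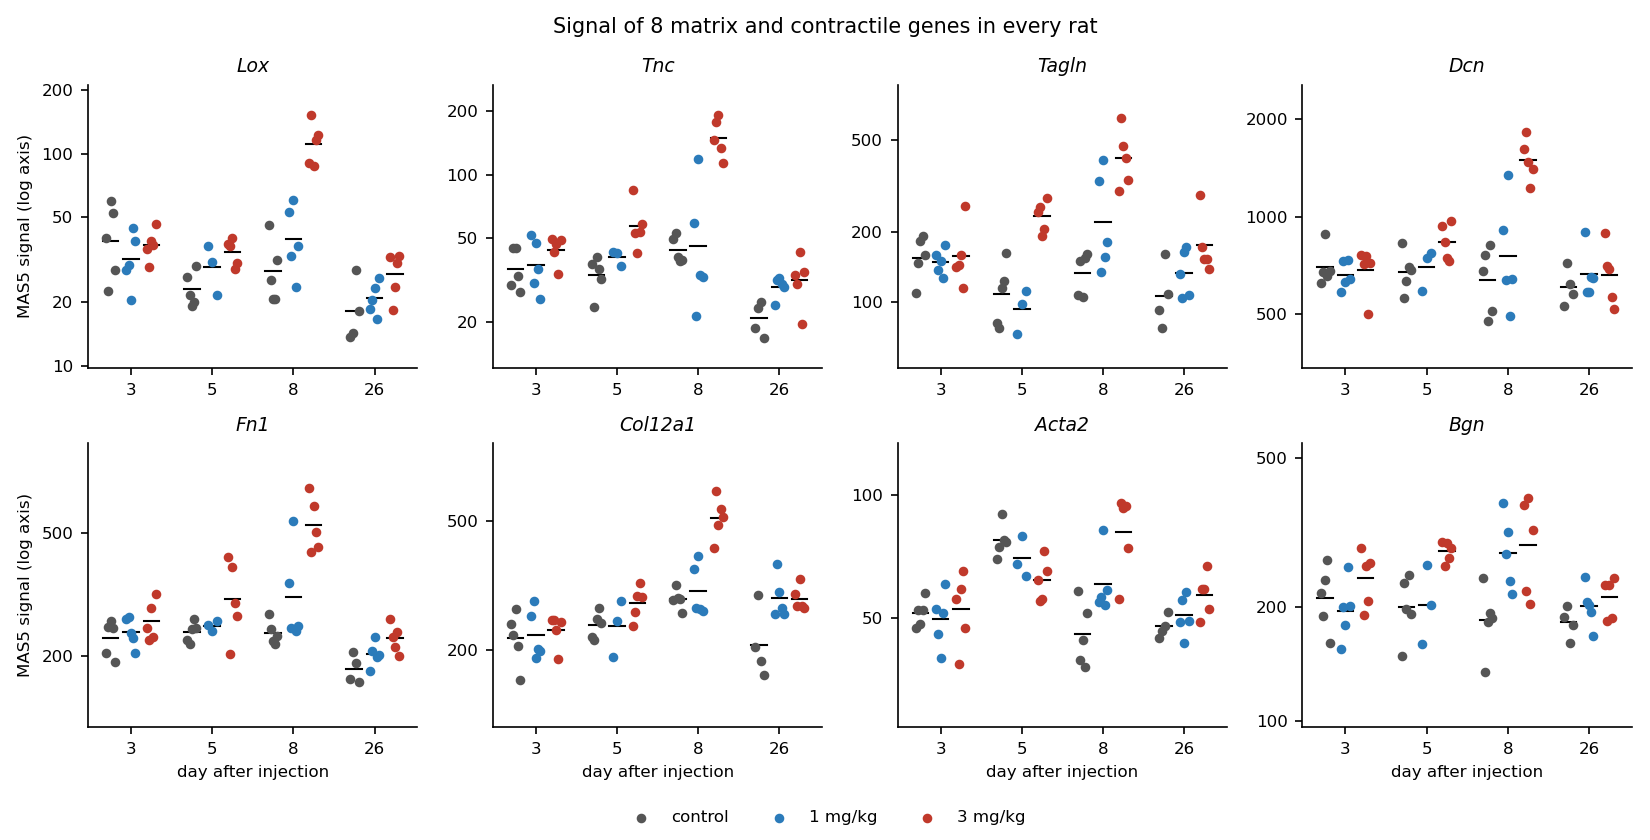
MAS5 signal (vertical, log axis) of Lox, Tnc, Tagln, Dcn, Fn1, Col12a1, Acta2 and Bgn in every rat by day after injection (horizontal) and dose (grey control, blue 1 mg/kg, red 3 mg/kg). Points are single rats and black bars are the mean of log2(signal + 16) turned back to signal. On day 8 the 5 red points of Lox, Tnc, Tagln, Dcn, Fn1 and Col12a1 stand above all grey points, and by day 26 red and grey points overlap in all 8 genes.

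Of 4 proteoglycans 3 rose. Dcn, decorin, which coats collagen fibrils and binds growth factors, read 1616, 1829, 1472, 1227 and 1403 at 3 mg/kg and 679.7, 762.9, 476.7, 816.9 and 512.4 in the controls. The groups were far apart, and the change was 1.21 ± 0.17 (adjusted p = 7.01e-08). Bgn, biglycan, its close relative, changed by 0.62 ± 0.15 (adjusted p = 0.00114) with 3 of 5 treated rats above all controls, and Lum, lumican, a dim gene with a control mean of 18.6, by 0.41 ± 0.14 (adjusted p = 0.0143) with 2 of 5 above. Vcan, versican, was dim and changed by -0.11 ± 0.19. Lum and Dcn lie next to each other in the rat genome, with no protein-coding gene between them in RefSeq.

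Among the 5 chains of the fibril-forming collagens only Col5a2, a chain of the type V collagen that sets fibril diameter, rose by its chosen probe set. It read 238.5, 259.3, 226.5, 215.4 and 218.9 at 3 mg/kg and 143.6, 165.4, 201.5, 162.9 and 189.2 in the controls, with no overlap, and changed by 0.40 ± 0.09 (adjusted p = 0.000684). Col1a1, a chain of type I collagen, the bulk of fibrillar matrix, read 117.2, 83.8, 147.4, 93.3 and 94.7 against 95.8, 118.9, 89.9, 81.7 and 77.5. The groups overlapped, with a change of 0.17 ± 0.15 (adjusted p = 0.41, 95% interval -0.14 to 0.48). Col1a2 changed by 0.16 ± 0.12 (adjusted p = 0.29), Col3a1, of type III collagen, by 0.25 ± 0.14 (adjusted p = 0.16) and Col5a1 by 0.28 ± 0.13 (adjusted p = 0.085). Col3a1 and Col5a2 are also immediate neighbours in the genome.

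The other collagens and the basement membrane chains gave 1 rise each. Col12a1, a collagen that sits on the surface of type I fibrils, read 413.7, 620.3, 484.6, 546.1 and 512.9 at 3 mg/kg and 285.2, 316.3, 289.0, 288.1 and 260.9 in the controls, a change of 0.80 ± 0.13 (adjusted p = 1.52e-06) with no overlap. The microfibrillar Col6a1 (0.08 ± 0.14) and Col6a3 (-0.05 ± 0.12) did not pass. Of 6 basement membrane chains Col18a1, the parent of endostatin, rose by 0.34 ± 0.14 (adjusted p = 0.0431). Col4a1 changed by 0.22 ± 0.10 (adjusted p = 0.082), Col4a2 by 0.24 ± 0.13, Col15a1 by 0.02 ± 0.14, and the laminin chains Lamb1 by 0.07 ± 0.05 and Lamc1 by 0.12 ± 0.09. Col4a1 and Col4a2 share a promoter region as adjacent genes, and their changes differed by less than their standard errors.

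None of the 5 elastic fibre genes passed on day 8. Fbln1 changed by 0.29 ± 0.15 (adjusted p = 0.14), Fbn1, the microfibril backbone fibrillin, by 0.21 ± 0.12 (adjusted p = 0.17), Eln, elastin itself, by 0.15 ± 0.13, Fbln5 by 0.01 ± 0.10 and Fbln2 by 0.00 ± 0.09. All but Fbln5 and Fbn1 were dim, with control mean signals on day 8 of 9.31 for Eln, 11.8 for Fbln1 and 18.6 for Fbln2.

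Of the 4 listed metalloproteinases and inhibitors tested, 2 proteases rose and 1 inhibitor fell in RNA signal on day 8 at 3 mg/kg. Matrix breakdown itself was not measured. Timp1, an inhibitor outside the list, rose by 2.47 ± 0.29 on day 8 at 3 mg/kg. Mmp2, gelatinase A, read 116.8, 69.9, 102.2, 81.9 and 108.0 at 3 mg/kg and 58.4, 60.8, 68.9, 54.2 and 68.2 in the controls, a change of 0.50 ± 0.14 (adjusted p = 0.00311) with no overlap. Mmp14, the membrane protease that activates pro-Mmp2, changed by 0.25 ± 0.10 (adjusted p = 0.0411), with replicate 2 at 122.8 below every control rat and the other 4 above them. Timp3, the inhibitor that is bound to the matrix, read 1809, 1769, 2514, 1688 and 1598 against 2166, 2384, 2484, 2685 and 2680. Replicate 3 stayed among the controls and the other 4 lay below them, for a change of -0.41 ± 0.08 (adjusted p = 4.49e-05), and all 4 of its probe sets fell. Timp2, another inhibitor, changed by 0.08 ± 0.09. Mmp14 lost the call in 7 of the 10 fits that left out 1 rat of the compared groups, Col18a1 in 5, Pdgfrb in 3 and Lum in 2, and the other 12 calls of that comparison held in all 10.

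The receptors of platelet-derived growth factor, which mark fibroblasts and pericytes and drive their growth, both rose. Pdgfra read 715.7, 534.3, 768.2, 544.7 and 689.8 against 474.4, 515.6, 498.7, 522.0 and 517.1 (0.34 ± 0.09, adjusted p = 0.00268), without overlap. Pdgfrb read 76.3, 63.4, 69.2, 82.3 and 72.3 against 66.4, 62.7, 45.2, 48.2 and 54.7 (0.32 ± 0.12, adjusted p = 0.0262), with 4 of 5 rats above the controls. Tgfb1, the growth factor best known for driving matrix synthesis, read 21.6, 17.8, 25.6, 27.1 and 21.5, and the control rats lay between 6.57 and 15.4 except replicate 5, which was among the treated rats. The change of 0.34 ± 0.16 did not pass (adjusted p = 0.092), and without that control rat it was 0.43 and passed (adjusted p = 0.0495).

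Where a member had several probe sets above the filter, they did not always give 1 call. In a fit of all kept probe sets, of 21 such members, all probe sets passed on day 8 at 3 mg/kg in 4 (Col18a1, Lox, Mmp14 and Timp3), none passed in 12, and they disagreed in 5. Col12a1 changed by 0.28 by its second probe set (adjusted p = 0.0997), Mmp2 by 0.11 (adjusted p = 0.44) and Col5a2 by 0.22 (adjusted p = 0.13), none of which passed. For Col5a1 the second probe set rose where the first did not, by 0.43 (adjusted p = 0.00301). Pdgfrb had other probe sets at 0.09 and 0.35, neither past the threshold.

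The 5 rats at 3 mg/kg did not rank alike across the genes. Replicates 1 and 3 held both highest signals for 21 of the 40 genes, among them Col1a1, Col1a2, Col3a1, Col6a1, Fn1, Bgn, Sparc and Pdgfra. Replicate 2 was lowest for 20 of the 40, yet highest for Lox, Tagln, Acta2, Dcn, Col5a2 and Col12a1. Umod, a thick ascending limb gene (uromodulin), read 785.5 and 921.0 in replicates 1 and 3, and 2.68, 21.6 and 5.37 in replicates 2, 4 and 5. Havcr1, the tubular injury marker KIM-1, read 2177, 829.5, 679.7, 1581 and 1640 in replicates 1 to 5. The median signal of the whole array was 20.3 in replicate 2, and 25.2, 25.7, 25.3 and 23.8 in replicates 1, 3, 4 and 5. The part of these tubular genes and of the array median in the ranking was not tested.

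**Figure D3:**
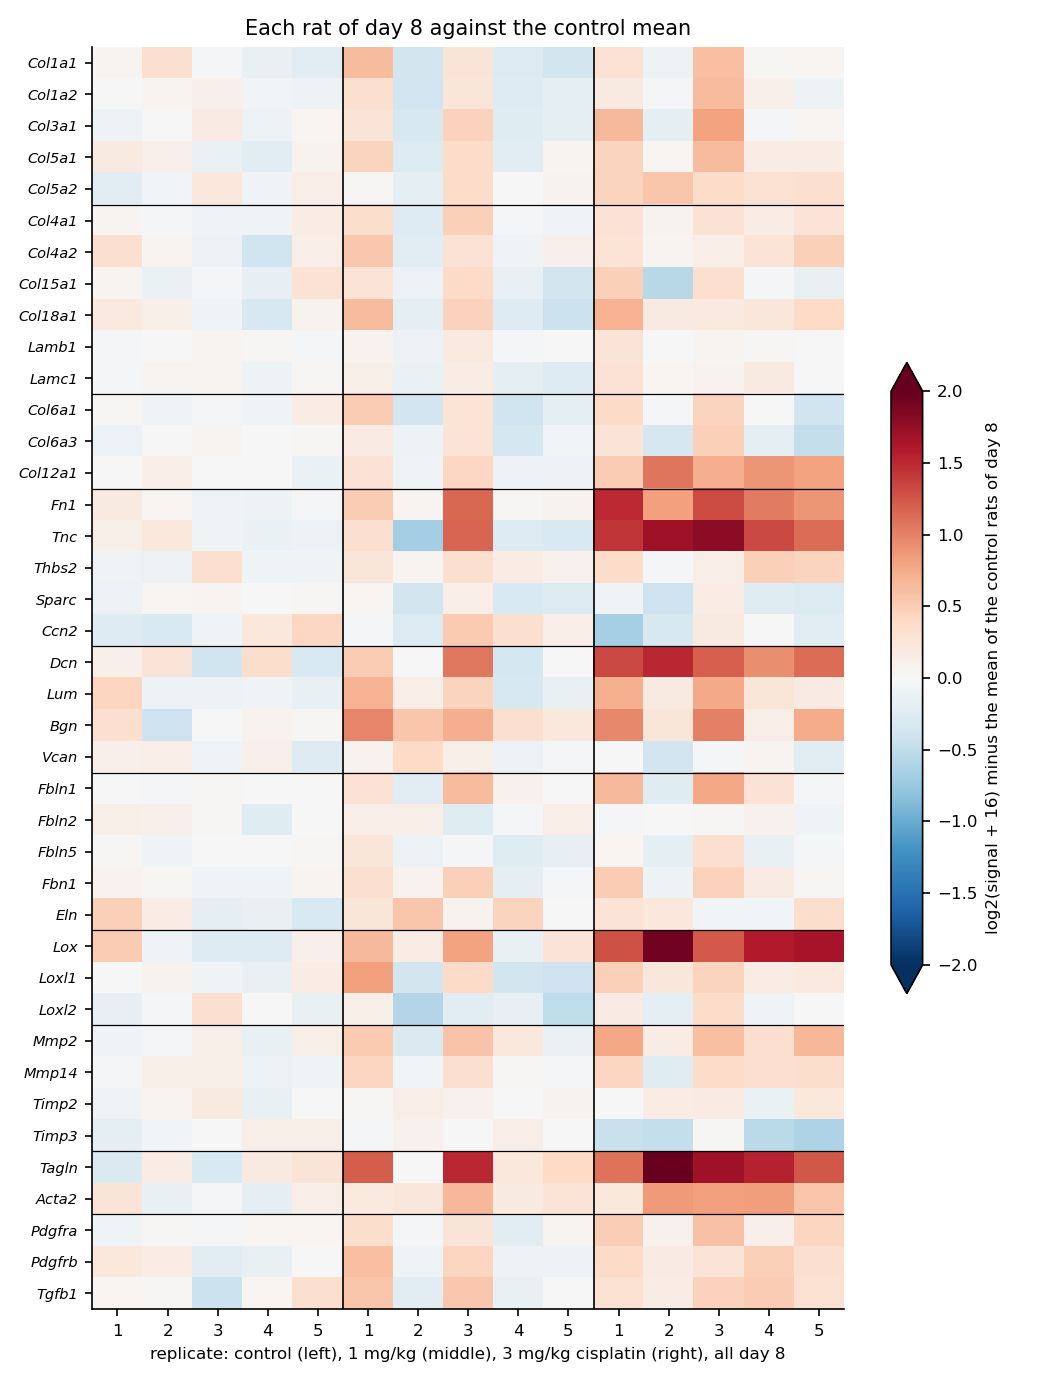
Each rat of day 8 (columns, 5 control, 5 at 1 mg/kg and 5 at 3 mg/kg) against the mean of the control rats of that day for the 40 genes tested (rows, grouped by role). Colour is log2(signal + 16) minus that mean, from -2 (blue) to 2 (red). At 1 mg/kg replicates 1 and 3 are redder than the other 3, and at 3 mg/kg Col1a1, Col1a2, Col3a1 and Col5a1 are reddest in replicates 3 and 1 while Lox, Tagln and Col5a2 are reddest in replicate 2.

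Other genes of the same pathways, taken from lists that share no gene with the 42, moved as follows on day 8 at 3 mg/kg. Each count stands against the 21.4% of all genes that rose and the 15.9% that fell, and the lists were not tested against it or against each other. Of 14 contractile and smooth muscle genes tested 10 rose and 1 fell (median 0.48), with Tpm2 at 1.21 ± 0.15, Flna at 1.04 ± 0.11, Tpm1 at 0.95 ± 0.11 and Cald1 at 0.68 ± 0.13. Of 12 further collagens 6 rose and 1 fell (median 0.33), with Col27a1 at 0.81 ± 0.16, Col11a1 at 0.39 ± 0.15 and Col8a1 at 0.39 ± 0.14, and the glomerular basement membrane chain Col4a4 at -0.64 ± 0.16. Of 18 further proteases and inhibitors 8 rose and 3 fell, led by Timp1, an inhibitor of metalloproteinases, at 2.47 ± 0.29, with the protease Adamts1 at 0.98 ± 0.28. Of 21 further glycoproteins and proteoglycans 6 rose and 3 fell, led by fibrinogen alpha (Fga, 2.81 ± 0.28) and osteopontin (Spp1, 2.54 ± 0.29).

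The same shares of all genes, 21.4% higher and 15.9% lower, stand beside the counts of the other 4 lists. Of 12 collagen processing and crosslinking genes 4 rose and 1 fell, with the prolyl hydroxylase P4ha2 at 0.37 ± 0.11, the procollagen protease Bmp1 at 0.34 ± 0.10 and the transglutaminase Tgm2 at -0.86 ± 0.15. Of 11 further basement membrane genes 4 rose and 2 fell, with Lamb3 at 1.46 ± 0.17 and Lama3, its partner chain in laminin-332, at -0.63 ± 0.17. Of 22 genes of TGF-beta and PDGF signalling 7 rose and 4 fell, with Tgfb2 at 0.61 ± 0.18, Inhba at 0.57 ± 0.14 and Smad2 at 0.49 ± 0.08. Of 18 matrix receptors 6 rose and 3 fell, with the integrin chain Itga3 at 0.80 ± 0.10, the hyaluronan receptor Cd44 at 0.78 ± 0.15 and the syndecan Sdc2 at -0.50 ± 0.09.

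Markers of cell types moved beside these genes. Their counts here and for the mesangium stand against the same 21.4% of all genes higher and 15.9% lower. Of 10 fibroblast and pericyte markers tested 4 rose and 1 fell, and 7 of those markers are themselves among the 42. Their summed signal was 3152 to 4405 at 3 mg/kg and 2308 to 2651 in the control rats of day 8. Dcn alone, a member, went from a mean of 649.7 to 1509 in that sum, while of the markers outside the 42 Cspg4 fell by 0.35 and Thy1 and Rgs5 did not pass. Of 7 listed myofibroblast markers 3 passed the filter, Acta2, Tagln and Cthrc1, and all 3 rose, Cthrc1 by 0.56 ± 0.15. Acta2 and Tagln are themselves among the 42. Cthrc1 was dim, with a mean of 3.19 in control rats of day 8 and 12.8 at 3 mg/kg. A gene this dim in control rats can pass the filter through the treated rats, so its rise adds no separate support. Postn, Fap, Cnn1 and Actg2 did not pass the filter. Of 12 macrophage markers 7 rose and none fell, with a summed signal of 2833 to 4353 against 2321 to 2638. Lyz2 alone went from a mean of 1359 to 2333 in that sum, and Adgre1 went from 59.36 to 44.79 without passing. Of 11 markers of the injured tubule 9 rose (summed signal 11210 to 15920 against 3190 to 3544), and all 7 of the thick ascending limb fell (610.3 to 5105 against 9122 to 11090). Havcr1, on the injured tubule list, went from a mean of 5.94 to 1381 and, like Cthrc1, can pass the filter through the treated rats. Its change thus adds no separate support either. Of 10 endothelial markers 3 fell (1802 to 2093 against 2070 to 2206), and of 4 markers of vascular smooth muscle Des and Mylk rose while Smtn fell. The part of each in the changes of the matrix genes was not tested.

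The mesangium, the contractile support cells of the glomerulus, has a list that holds Lox and Pdgfrb among the 42. Of 6 mesangial markers tested 4 rose, Lox and Pdgfrb among them, with Itga8 at 0.65 ± 0.18 and Des at 0.46 ± 0.09. The summed signal was 579.1 to 685.4 at 3 mg/kg and 391.7 to 531.9 in the controls. In that sum Lox alone went from a control mean of 28.83 to 113.5, and Serpine2 went down from 121.9 to 108.2.

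On day 5 a few genes were higher at 3 mg/kg, of which Mmp14 had also passed on day 3. Its day 3 call was lost in 7 of the 10 fits that left out 1 rat. Of the 40, 4 rose, when 5.31% of all genes did, and none fell, when 3.49% did. Tagln read 244.0, 258.2, 193.0, 206.6 and 281.3 at 3 mg/kg and 81.2, 77.2, 115.3, 123.7 and 163.1 in the controls (1.01 ± 0.22, adjusted p = 0.00186). Tnc read 84.5, 52.7, 42.5, 53.2 and 58.2 against 37.7, 23.6, 40.4, 35.5 and 31.8 (0.56 ± 0.18, adjusted p = 0.042). Mmp14 rose by 0.45 ± 0.10 (adjusted p = 0.00209) and Bgn by 0.46 ± 0.15 (adjusted p = 0.0471). With probe sets averaged per gene Mmp14 did not pass (0.31, adjusted p = 0.0733). In each of the 4 every treated rat lay above every control rat, which 5.29% of all genes also did. Bgn lost its call in 8 of the 10 fits that left out 1 rat and Tnc in 6, and the count fell to 2 without control replicate 5, without replicate 1 or without replicate 5 at 3 mg/kg.

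Tagln and Acta2 did not give the same call on that day. For Acta2 the control rats of day 5, the reference here, all lay above the control rats of day 8. Acta2 read 61.9, 54.9, 55.6, 72.9 and 65.2 at 3 mg/kg and 69.6, 74.6, 90.0, 77.5 and 76.7 in the controls, a change of -0.26 ± 0.11 (adjusted p = 0.11) with 4 of 5 treated rats below all controls, while Tagln rose. Lox (0.37 ± 0.16, adjusted p = 0.16), Fn1 (0.33 ± 0.15, adjusted p = 0.15) and Col18a1 (0.31 ± 0.14, adjusted p = 0.15) had not passed.

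Between days 5 and 8 the difference between 3 mg/kg and control grew in 7 of the 40, when 8.65% of all genes grew more positive, and dropped in Timp3, when 7.69% did. The growth was 1.17 ± 0.23 for Lox, 0.92 ± 0.15 for Acta2, 0.91 ± 0.24 for Dcn, 0.91 ± 0.26 for Tnc, 0.77 ± 0.21 for Fn1, 0.58 ± 0.18 for Col12a1 and 0.46 ± 0.13 for Col5a2. For Acta2 the control rats of day 8, with a mean of 46.25, all lay below the control rats of day 5. Lower controls are thus part of its growth. Tagln did not pass this test. From day 3 to day 5 no member passed by limma, when 0.573% and 0.942% of all genes did in the 2 directions. An unadjusted limma p under 0.05 was found for 3 of the 40 and for 1873 of all 11683 genes.

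Ccn2, connective tissue growth factor, is a matricellular protein whose gene responds to TGF-beta and to the YAP and TEAD factors that sense tension. Its promoter is printed because it holds the TEAD motif GGAATG more than once. The 250 bases before the start lie on the minus strand at chr1:22624615-22624864 in GRCr8, and capitals mark the 3 matches, which all read GGAATG on the strand of the gene.
Ccn2: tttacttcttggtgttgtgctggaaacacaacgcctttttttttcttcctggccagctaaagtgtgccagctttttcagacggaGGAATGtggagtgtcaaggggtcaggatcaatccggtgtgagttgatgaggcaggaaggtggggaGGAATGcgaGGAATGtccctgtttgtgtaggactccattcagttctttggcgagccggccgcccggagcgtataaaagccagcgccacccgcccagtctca
On both strands of the full window of 300 bases GGAATG was found in 7 of the 27 members, Acta2, Ccn2, Fbln5, Lamc1, Loxl1, Sparc and Thbs1, and in 14.2% of all promoters. The AP-1 element TGANTCA was found in Col6a1, Mmp7 and Pdgfra and in 7.33% of all promoters. The TATA box TATAAA was found in Ccn2, Col1a2, Mmp7 and Tnc and in 14.2%, and the SMAD palindrome GTCTAGAC in no member and in 0.197%. These matches are descriptions of the letters and not of binding.

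On day 3 the list stood near the background at 3 mg/kg, with 1 member higher, when 5.57% of all genes rose, and 1 lower, when 4.28% fell. Mmp14 read 163.0, 137.8, 153.0, 165.7 and 159.6 at 3 mg/kg and 116.6, 153.4, 135.6, 93.3 and 119.4 in the controls (0.31 ± 0.10, adjusted p = 0.0353). It lost the call in 7 of the 10 fits that left out 1 rat, and its second probe set did not pass (0.11, adjusted p = 0.66). Ccn2 read 775.4, 795.1, 1030, 826.5 and 900.2 against 1063, 839.8, 1296, 2606 and 2577, a change of -0.80 ± 0.22 (adjusted p = 0.0136). Control replicates 4 and 5 stood far above the other 3 control rats, and without either of them Ccn2 did not pass (adjusted p = 0.0752 without replicate 4 and 0.081 without replicate 5) and neither did any other member. The count was 1 without control replicate 1 and without replicate 1, 3, 4 or 5 at 3 mg/kg. At 1 mg/kg Ccn2 read 745.7, 994.7, 1052, 977.6 and 785.6 against the same control rats (-0.73 ± 0.22, adjusted p = 0.33). The 3'/5' signal ratio of the actin control probes, a measure of RNA integrity and labelling, was 5.74 to 6.02 at 3 mg/kg and 4.48 to 5.08 in the control rats of day 3, and with that ratio as a covariate no member passed on day 3.

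At 1 mg/kg no member passed by limma on any day. Of all genes 0.0856% rose and 0.00856% fell on day 3, 0.0171% rose and 0% fell on day 5, 0.428% rose and 0.0942% fell on day 8, and 0.00856% rose and 0% fell on day 26. On these days 2, 0, 7 and 11 of the 40 had an unadjusted limma p under 0.05, as had 704, 376, 1510 and 776 of all 11683 genes. The 3 rats of day 5 make that comparison the least precise. The largest changes on day 8 were those of Tagln (0.67 ± 0.22, adjusted p = 0.17) and Bgn (0.56 ± 0.15, adjusted p = 0.069). In that comparison 1 member passed without control replicate 1, without replicate 4 or without replicate 5 at 1 mg/kg.

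The 1 mg/kg rats of day 8 were not uniform. Tagln read 332.5, 134.9, 409.6, 156.6 and 182.1 in replicates 1 to 5, Fn1 345.5, 246.6, 547.9, 240.5 and 249.9, Dcn 913.0, 637.5, 1343, 492.4 and 640.2, and Tnc 59.1, 21.2, 118.8, 33.4 and 32.6. Replicates 1 and 3 held the 2 highest signals for 31 of the 40 genes. The median of the 40 differences from the control mean was 0.32 and 0.37 in these rats and -0.12, -0.13 and -0.04 in replicates 2, 4 and 5. Havcr1 read 911.8 and 1085 in replicates 1 and 3, and 32.4, 32.9 and 17.6 in the other 3, against 1.74 to 10.2 in the control rats. The actin 3'/5' ratio was 8.58 in replicate 1, the highest in that group, and 4.52 in replicate 3. The part of either measure in the signals of the matrix genes was not tested.

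Set directly against each other on day 8, 3 mg/kg exceeded 1 mg/kg in 10 of the 40, when 12.1% of all genes were higher, and was lower in Timp3 (-0.46 ± 0.08), when 11.1% were lower. The largest differences were those of Tnc (1.42 ± 0.18), Lox (1.19 ± 0.16), Dcn (0.97 ± 0.17), Tagln (0.86 ± 0.22), Fn1 (0.75 ± 0.15) and Col12a1 (0.71 ± 0.13). Col5a2 (0.34), Acta2 (0.35), Loxl2 (0.32) and Pdgfra (0.26) were also higher, though Loxl2 lost the call in 7 and Pdgfra in 6 of the 10 fits that left out 1 rat. Fitted on these 2 groups alone, the calls numbered 5 rather than 11, without Col5a2, Fn1, Loxl2, Tagln, Acta2 and Pdgfra. On day 5, 2 of the 40 were higher at 3 mg/kg, when 2.59% of all genes were higher and 1.38% lower. These were Tagln (1.20 ± 0.26) and Mmp14 (0.49 ± 0.12, not past the threshold without replicate 3 at 1 mg/kg). On day 3 none passed by limma, when 1.56% of all genes were higher and 1.57% lower. There 4 of the 40 had an unadjusted limma p under 0.05, as had 2178 of all 11683 genes.

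On day 26 no member passed at 3 mg/kg by limma, when 0.556% of all genes were higher and 0.197% lower, and the lowest adjusted p was 0.0604, for Pdgfrb (0.45 ± 0.12). Yet 39 of the 40 changes were above 0, against 57.5% of all genes, with a median of 0.23 against 0.03 over all genes. An unadjusted limma p under 0.05 was found for 15 of the 40 and for 1857 of all 11683 genes. Lox read 32.5, 18.3, 23.4, 30.5 and 32.9 at 3 mg/kg and 13.6, 14.2, 28.2 and 18.2 in the 4 control rats. Tagln read 290.0, 173.7, 154.0, 153.9 and 139.4 against 92.4, 77.7, 161.4 and 108.1 (0.65 ± 0.24, adjusted p = 0.14). Without control replicate 2, which had the highest signal of its group for 23 of the 40 genes, 4 members passed, and 1 passed without replicate 2 at 3 mg/kg.

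From day 8 to day 26 the difference between 3 mg/kg and control fell by 1.20 ± 0.24 for Lox, by 1.10 ± 0.27 for Tnc, by 1.10 ± 0.24 for Dcn, by 0.80 ± 0.21 for Fn1 and by 0.46 ± 0.15 for Acta2. These are 5 of the 40, when 7.66% of all genes dropped, and Timp3 alone turned upward, by 0.46 ± 0.12, when 7.3% did. At 1 mg/kg on day 26 all 40 changes were above 0, against 50.9% of all genes. Their median was 0.21 against 0.00 over all genes, and no member passed by limma (lowest adjusted p 0.32, for Loxl2, 0.49 ± 0.13). Both doses were set against the same 4 control rats, so their medians are not independent. Between the doses on day 26 the median difference of the 40 was 0.02, no member passed by limma, and 0% of all genes passed in either direction. An unadjusted limma p under 0.05 was found for 1 of the 40 and for 1197 of all 11683 genes.

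The control rats themselves differed between days. On day 26 they were lower than the control rats of day 8 in 9 of the 40, when 0.556% of all genes were lower, and higher in none, when 0.719% were higher. The median of the 40 was -0.35 against 0.01 over all genes, and in 14 of the 40 every control rat of day 26 lay below every control rat of day 8, which 2.71% of all genes also did. Age and anything that differed in handling between those days cannot be told apart.

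**Figure D4:**
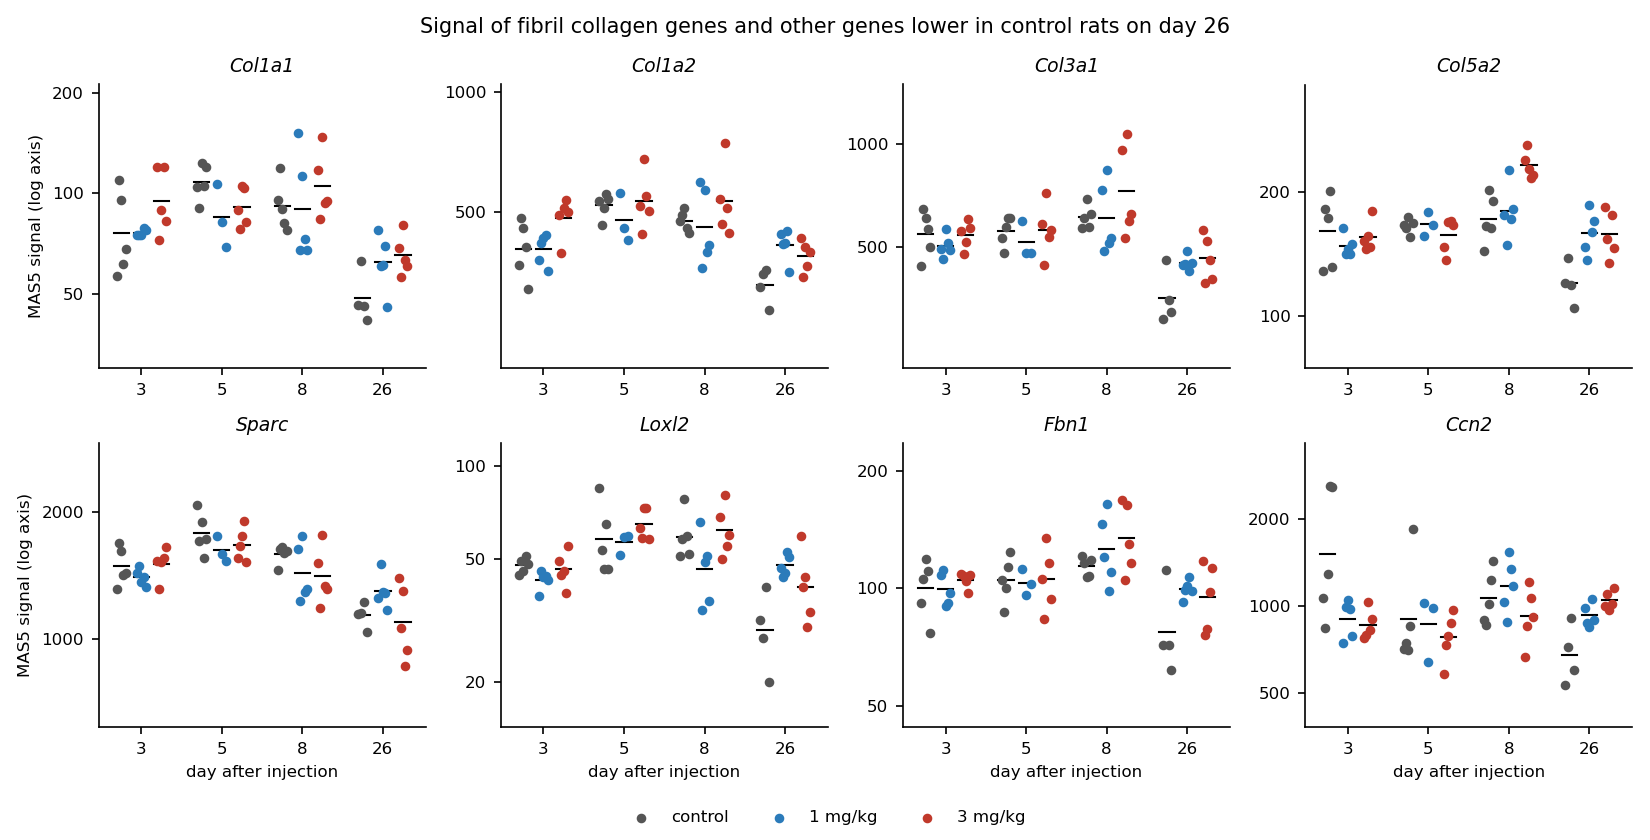
MAS5 signal (vertical, log axis) of Col1a1, Col1a2, Col3a1, Col5a2, Sparc, Loxl2, Fbn1 and Ccn2 in every rat by day after injection (horizontal) and dose (grey control, blue 1 mg/kg, red 3 mg/kg), with black bars as the mean of log2(signal + 16) turned back to signal. The 4 grey points of day 26 stand below all grey points of day 8 for Col1a1, Col1a2, Col3a1, Col5a2, Sparc and Loxl2, and for Ccn2 the grey points of day 3 include 2 far above the rest, at 2606 and 2577.

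Of the 5 fibril-forming chains 4 fell, and 1 of these calls, that of Col3a1, held in all 9 fits that left out 1 rat. Col3a1 read 306.4, 455.3, 347.4 and 321.4 in the control rats of day 26 and 568.9, 606.5, 688.4, 569.2 and 623.7 in those of day 8 (-0.76 ± 0.15, adjusted p = 0.00375). Col1a1 read 46.1, 62.5, 45.8 and 41.8 against 95.8, 118.9, 89.9, 81.7 and 77.5 (-0.74 ± 0.16, adjusted p = 0.0106). Col1a2 changed by -0.52 ± 0.12 (adjusted p = 0.0191) and Col5a2 by -0.46 ± 0.10 (adjusted p = 0.00909), and Col5a1, at -0.40 ± 0.14, did not pass (adjusted p = 0.14). In the 4 that passed the groups did not overlap. The second probe sets of Col1a2 (-0.62) and Col5a2 (-0.49) fell too, and that of Col1a1 (-0.62, adjusted p = 0.11) did not pass.

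The other 5 genes were spread over the roles. Loxl2 read 31.6, 27.8, 40.5 and 20.0 against 51.1, 57.9, 77.9, 59.3 and 51.9 (-0.73 ± 0.13, adjusted p = 0.00139), and its second probe set did not pass (-0.15, adjusted p = 0.52). Sparc read 1147, 1149, 1225 and 1035 against 1457, 1632, 1653, 1603 and 1613 (-0.48 ± 0.11, adjusted p = 0.0107). Lamc1 changed by -0.43 ± 0.09 (adjusted p = 0.00738), with its second probe set at -0.04 (adjusted p = 0.92), Fbn1 by -0.48 ± 0.13 (adjusted p = 0.0442) and Fbln5 by -0.40 ± 0.10 (adjusted p = 0.0298). The second probe sets of Fbn1 (-0.67, adjusted p = 0.00841) and Sparc (-0.45, adjusted p = 0.0135) fell too. By their chosen probe sets Fbn1 lost the call in 8 and Fbln5 in 7 of the 9 fits that left out 1 rat. No proteoglycan, contractile gene, protease or growth factor receptor passed. Without control replicate 4 of day 26 the count was 3, with Col1a1 (adjusted p = 0.0559), Col1a2 (0.11), Col5a2 (0.0657) and Sparc (0.0657) lost as well. Without replicate 1 the count was 4, with Col1a1 (adjusted p = 0.0513), Col1a2 (0.0702) and Lamc1 (0.0558) lost as well. Col1a2 was lost in 4 of the 9 fits.

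Against the control rats of day 3, those of day 26 were lower in 7 of the 40, when 1.38% of all genes were lower, and higher in none, when 0.651% were higher. Ccn2 changed by -1.14 ± 0.23 (adjusted p = 0.00358), Lox by -0.69 ± 0.17, Col3a1 by -0.60 ± 0.15, Loxl2 by -0.49 ± 0.13, Sparc by -0.39 ± 0.11, Col5a2 by -0.38 ± 0.10 and Lamc1 by -0.38 ± 0.09. The second probe sets of Lox (-0.30, adjusted p = 0.50), Loxl2 (-0.09, adjusted p = 0.81) and Lamc1 (-0.20, adjusted p = 0.47) did not pass. Nor did that of Sparc (-0.31, adjusted p = 0.13), while that of Col5a2 fell too (-0.48, adjusted p = 0.0253). This comparison and the last share the control rats of day 26. It rested on few rats: the count was 1 without replicate 1 or 4 of day 26 or replicate 3 of day 3, 2 without replicate 4 of day 3 and 3 without replicate 2 of day 3. Fitted on the 2 groups alone it was 2.

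Of the pathway lists, the further basement membrane genes were lower in 2 of 11 in the control rats of day 26 against day 8, Nid1 (-0.77 ± 0.18) and Lama4 (-0.37 ± 0.09), and the further collagens in 1 of 12, Col4a5 (-0.36 ± 0.07). The remaining 6 lists held no gene that passed. The fibroblast and pericyte markers summed to 1761 to 2291 on day 26 against 2308 to 2651 on day 8, with 3 of 10 lower, all of them collagen chains named above, and the proximal tubule markers to 27880 to 35560 against 24690 to 28840. No macrophage, endothelial or tubular marker passed, and the part of these sums in the fall was not tested.

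The position of each rat of day 26 was read as the median difference of its 40 genes from the control mean of day 8. It was -0.45, -0.17, -0.29 and -0.44 in the 4 control rats, -0.17 to -0.10 in the 5 rats at 1 mg/kg and -0.16 to 0.08 in the 5 at 3 mg/kg. Control replicate 2, at -0.172, was next to the lowest treated rat, at -0.167, and the other 3 control rats stood lower. For Col3a1 the rats at 1 mg/kg read 441.8, 443.7, 484.8, 422.3 and 447.0 and those at 3 mg/kg 561.1, 390.1, 520.4, 456.7 and 401.9, below the control rats of day 8 with no overlap.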

How the data were processed

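Values are the signal intensity of each probe set, 1 column per array, deposited by the authors. The submitters' processing notes name MAS5 as the tool, with a version that is not given in the sources used here. Each array has a trimmed mean of 99.99, so the signals were scaled to a common level before deposit. MAS5 averages mismatch-corrected probe values robustly on a log scale.

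Of 31099 probe sets, 57 controls were left out. The annotation names 1 gene for 20826, several for 436 and none for 9780, and 1 symbol changed when names were updated through RefSeq identifiers (GRCr8). Signals were turned to log2(signal + 16). Probe sets above the 40th percentile of their array (10.61 to 15.54) on at least 3 arrays were kept, 21829 in all, and the one with the highest mean stood for each gene. limma 3.58.1 (R 4.3.3) fitted 12 group means over all 57 arrays, with an intensity trend. Tests are two-sided, with Benjamini-Hochberg adjustment over 11683 genes within each comparison. The script was tested on simulated data. Arrays carry no read depth, so the number of rats limits the precision. Arrays are labelled as biological replicates, so p-values measure the spread between rats.

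All 40 members tested are accounted for, and those that passed on day 8 at 3 mg/kg or between control days are named with values, with Col1a1, Acta2, Fn1, Tgfb1 and Mmp7 named whatever the result; of other lists, up to 4 genes with the largest changes. Members and lists were chosen with earlier results of these data known. Alternatives are another offset, filter, normalization, choice of probe sets or variance model, the compared groups alone, the actin ratio as a covariate, the replicate number as a block, and leaving out each rat. Replicate numbers were not taken to pair the rats. Promoters are RefSeq sequences. Figures were drawn with matplotlib 3.10.9.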

Additional observations from a re-analysis of the deposited data

Results flagged for a closer look

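In some groups 1 rat stood apart from the rest by Dixon's ratio of the gap to the range, a test that flags about 1 in 20 groups by chance. In the control rats of day 8 these were Lum, with replicate 1 highest at 30.2, Fbln5, with replicate 2 lowest at 373.5, and Sparc, with replicate 1 lowest at 1457. At 3 mg/kg on day 8 they were Mmp14, with replicate 2 lowest at 122.8, and Timp3, with replicate 3 highest at 2514.

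The difference between 3 mg/kg and control was tested between days. From day 5 to day 8 it changed by 1.171 for Lox, 0.917 for Acta2, 0.912 for Dcn, 0.909 for Tnc, 0.774 for Fn1, 0.582 for Col12a1, 0.464 for Col5a2 and -0.362 for Timp3, with adjusted p by limma from 3.39e-05 to 0.0218. From day 8 to day 26 it changed by -1.198 for Lox, -1.101 for Tnc, -1.098 for Dcn, -0.799 for Fn1, -0.456 for Acta2 and 0.461 for Timp3, with adjusted p by limma from 0.00034 to 0.0353. Acta2 lost the latter call in 10 of the 19 fits that left out 1 rat, and Timp3 the former in 2 of 20.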

How the results depend on the processing

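No change reversed under any alternative. The count of members that passed at 3 mg/kg on day 8 stayed at 15 to 18 under 14 other settings and at 13 to 20 when 1 rat was left out. On day 3 at 3 mg/kg the 2 calls became 1 with probe sets averaged per gene, 0 with the compared groups alone and 0 with the actin ratio as a covariate, and 0 to 2 when 1 rat was left out. On day 5 the 4 calls became 2 with no filter, 6 with the compared groups alone and 2 to 3 when 1 rat was left out. On day 26 at 3 mg/kg the count of 0 became 1 with no offset, with probe sets averaged per gene and with every kept probe set tested, and 0 to 4 when 1 rat was left out. At 1 mg/kg on day 8 it was 0 to 1 when 1 rat was left out. For 3 against 1 mg/kg it became 1 on day 3 with the compared groups alone and with array weights, 1 rather than 2 on day 5 with probe sets averaged per gene and 1 to 2 when 1 rat was left out, and 5 rather than 11 on day 8 with the compared groups alone. The change from day 3 to day 5 gave 1 call with array weights. For control day 26 the count of 9 against day 8 was 3 to 12 when 1 rat was left out, 6 with the compared groups alone and 13 with array weights, and against day 3 it was 1 to 8 then and 2 with the compared groups alone. The cause of these differences was not tested.

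With the replicate block the count was 1 on day 26 at 3 mg/kg and 17 on day 8, 9 for the change from day 5 to day 8, 11 and 8 for control day 26 against days 8 and 3, and as before in the other comparisons. All calls made without the block were kept with it. Rats of the same number in different groups correlated at a median of 0.0144 in their deviations from the group means over 298 pairs, 35 of them over 0.1. For rats of other numbers the median was -0.00304 over 1189 pairs, 93 of them over 0.1. Both medians were near 0, and the numbers were not taken as pairs. Of 936 values of single genes under other settings 54 lost their call, and of 784 with 1 rat left out 124 did. Dim signals limit Eln, Fbln1, Fbln2, Lum, Tgfb1, Thbs2 and Vcan.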
